A study of Homo sapiens with 8 samples.

Results

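The HOXB genes examined here were HOXB2 to HOXB9, which lie side by side on human chromosome 17, and they were chosen by symbol. Of these 8 genes, 7 were found among the 17649 genes analysed, and HOXB2 was not analysed here. The choice was made with the values of the same comparison already known, so the difference between groups is only described for these genes, and counts of members past a threshold are descriptions too. RNA was sequenced from MDA-MB-231, an established estrogen receptor-negative human breast cancer cell line with a mesenchymal phenotype. The 4 CML libraries came from cells given 1 µM carboxymethyllysine (CML), an advanced glycation end product, for 48 hours. The 4 control libraries came from cells that received PBS only, and both groups were kept in medium with 5 mM glucose. The comparison addresses how this glycation product changes gene expression in these cells. All values come from a single cell line in culture, and no source used here says that the 4 libraries of a group were separate cultures, so the spread between them may be technical and p-values measure that spread only.

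HOX genes encode transcription factors that bind DNA through a conserved homeodomain, and they set position along the body axis of the embryo. They lie in the HOXA, HOXB, HOXC and HOXD clusters, and within a cluster the genes toward the 3′ end are in general switched on earlier and further toward the head than those toward the 5′ end. In adult tissue and in tumors many are held silent by Polycomb complexes, retinoic acid can activate 3′ members, and HOXB7 and HOXB9 are known for their high expression in part of breast cancers, where they have been linked to invasion and angiogenesis.

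In RefSeq (GRCh38.p14) all of these genes are on the minus strand of chromosome 17, so the cluster is read from HOXB9 at the high coordinates to HOXB2 at the low ones. HOXB9 (ENSG00000170689.10) spans chr17:48621156-48626358 and HOXB8 (ENSG00000120068.6) chr17:48612346-48615292. HOXB7 (ENSG00000260027.4) spans chr17:48607232-48611017 and HOXB6 (ENSG00000108511.10) chr17:48595751-48604986. The 3′ side holds HOXB5 (ENSG00000120075.5) at chr17:48591257-48593779 and HOXB4 (ENSG00000182742.6) at chr17:48575507-48578350. HOXB3 (ENSG00000120093.11), at chr17:48548870-48590241, has the longest span and covers the whole of HOXB4.

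The stretch of 36 bases below encodes the recognition helix of the homeodomain, the part that enters the major groove of DNA. It is printed for HOXB9 and HOXB7, the members with the highest levels, and for HOXB6, whose transcript shared the most sequence with other HOX genes. The aim is to show how alike members are in this stretch. Sequences are 5′ to 3′ from the GENCODE 44 canonical transcripts, and capitals mark bases that differ from HOXB9.
HOXB9: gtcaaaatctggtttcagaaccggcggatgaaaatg
HOXB7: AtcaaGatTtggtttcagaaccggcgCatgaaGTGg
HOXB6: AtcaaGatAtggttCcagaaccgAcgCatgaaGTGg
HOXB7 differed from HOXB9 at 7 of these bases and HOXB6 at 9. Over the whole homeobox of 180 bases, identity with HOXB9 ran from 58.9% (HOXB4) to 65.6% (HOXB8), and the encoded homeodomains shared 38 to 43 of their 60 residues with that of HOXB9. Few whole stretches of 50 bases were shared with another HOX transcript. HOXB9 and HOXB8 had none, HOXB7 had 2 of 1314, and HOXB6 had the largest share at 92 of 1627 (5.65%, with HOXB3 and HOXB7). HOXB6 and HOXB3 share 433 exon bases on the same strand, so such stretches can be the same genomic bases. HOXB3 shared 13 of 3252 with HOXD3, a gene of another cluster.

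Values were CPM (reads scaled to a common library total), which the authors had normalised. The size of the smallest steps in each column put 1 read at 0.0535 to 0.0622 CPM and the depth at 16161801 to 18954732 reads per library. A gene at 0 reads could therefore have been present at up to 0.161 to 0.187 CPM, the level of 3 reads, and such limits cover counting error only. The 8 genes listed as markers of MDA-MB-231 were all at or above 1 CPM, with vimentin at a mean of 4109 CPM. Of the 7 luminal markers analysed, 3 were at or above 1 CPM (ERBB2 at 49.7, EPCAM at 14.5 and GATA3 at 4.62 CPM), while PGR and FOXA1 averaged 0.0209 and 0.0224 CPM, and the list summed to 65.3 to 74.1 CPM in control and 67.5 to 73.1 CPM in CML libraries. Among markers of other cells, the leukocyte gene PTPRC averaged 0.377 CPM and the fibroblast gene DCN 0.0150 CPM. Other genes of these lists were higher. The leukocyte genes CD68 and CD14 averaged 169 and 1.14 CPM. The endothelial genes KDR and PECAM1 averaged 28.0 and 3.21 CPM, and the fibroblast genes COL1A1 and LUM 10.8 and 1.24 CPM. The summed leukocyte list, mostly CD68, which tumor cells can also express, ran from 161 to 183 CPM in control and from 153 to 174 CPM in CML libraries. The endothelial list ran from 31.2 to 33.8 CPM in control and from 29.3 to 34.4 CPM in CML libraries, and the fibroblast list from 11.1 to 12.3 CPM and from 11.5 to 15.5 CPM.

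HOXB9 was the dominant HOXB transcript among those analysed. To compare genes with one another, CPM was divided by the length of the canonical transcript in kilobases. On this scale HOXB9, the most 5′ of the genes examined, averaged 23.2 CPM per kb over the 8 libraries (range 22.4 to 23.8). HOXB7 followed at 1.97 CPM per kb (range 1.22 to 2.63). No library brought these ranges together, and HOXB7 in turn lay above every value of the genes below it.

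HOXB3, which patterns the hindbrain in the embryo, averaged 0.648 CPM per kb (range 0.579 to 0.733), and HOXB8, a factor best known for blocking differentiation of myeloid progenitors, averaged 0.407 CPM per kb (range 0.195 to 0.598). The ranges of these neighbours overlapped, and with the length of all annotated exons in place of the canonical transcript their order turned, to 0.369 CPM per kb for HOXB8 and 0.288 for HOXB3. HOXB5, HOXB4 and HOXB6 formed the lowest group, at 0.0957, 0.0632 and 0.0452 CPM per kb, and neighbours in this group overlapped as well. The levels thus did not run in a single slope along the chromosome. HOXB9 and HOXB7, at the 5′ side, and HOXB3, at the 3′ side, were above HOXB4, HOXB5 and HOXB6 between them. HOXB8, which lies between HOXB9 and HOXB7, was below both in every library.

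**Figure D1:**
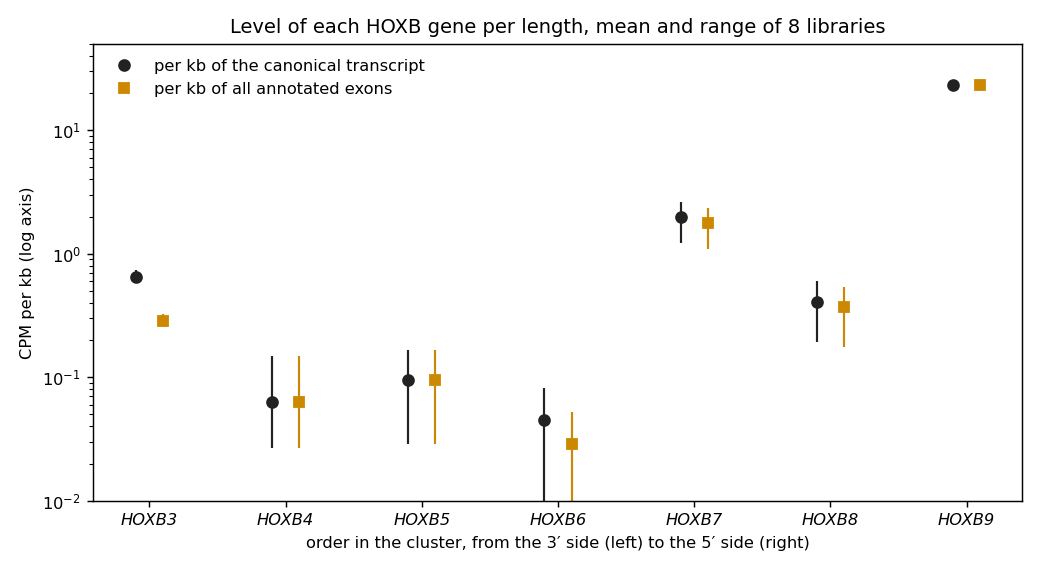
Mean level of each HOXB gene over the 8 libraries in CPM per kb (log axis), in chromosome order, per length of the canonical transcript (circles) or of all annotated exons (squares), with bars from the lowest to the highest library (HOXB6 bars reach 0, off the axis). HOXB9, at 23.2 CPM per kb, stood above every other member, and HOXB4, HOXB5 and HOXB6 were lowest.

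Ranked among 17498 genes with a length, HOXB9 held place 3071, which put 82.4% of genes below it. HOXB7, HOXB3 and HOXB8 held places 10509, 12551 and 13248, with 39.9%, 28.3% and 24.3% of genes below them. HOXB5, HOXB4 and HOXB6 were at places 15104, 15413 and 15636. HOXB9 was thus the sole member in the upper part of the transcriptome.

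HOXB9 was also the highest of all 34 HOX genes analysed. HOXD1 came next at 4.12 CPM per kb, followed by HOXB7. The summed level over the 8 HOXB genes analysed (HOXB3 to HOXB9 and HOXB13), on the CPM scale, was 66.2 (range 64.5 to 68.3). This was 82.7% of the CPM of the 34 HOX genes analysed. HOXB1, HOXB2 and some genes of other clusters were not analysed here and are in neither sum. The HOXD genes summed to 10.4 CPM (range 9.11 to 12.01), the HOXC genes to 3.07 CPM (range 2.41 to 3.93) and the HOXA genes to 0.333 CPM (range 0.0579 to 0.696). No HOXA gene analysed reached a mean of 0.5 CPM, compared with 4 of the HOXB genes. HOXB13, a prostate factor that lies apart from the rest of the cluster, had 0 reads in all 8 libraries.

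**Figure D2:**
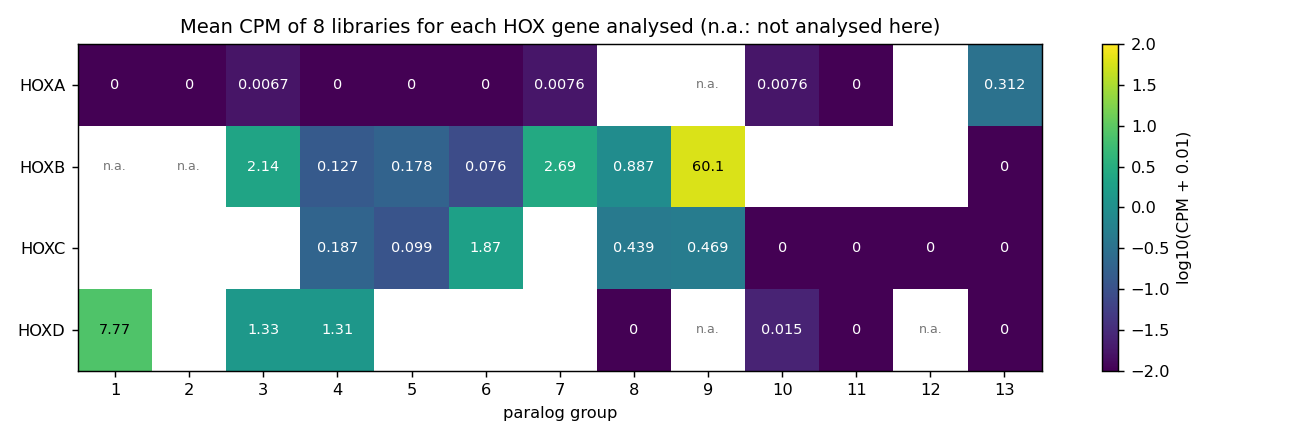
Mean CPM over the 8 libraries of each HOX gene analysed, printed in a grid of cluster by paralog group and coloured by its log10 with a small constant added; n.a. marks genes not analysed here and blank cells hold no gene. HOXB9, at 60.1 CPM, was the brightest cell, and 6 of the 10 HOXA genes were at 0.

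No HOXB gene was called as changed with CML. In the limma fit across all genes, none of the 7 members passed a false discovery rate (FDR) of 0.3, the threshold the study used for these libraries, where 158 of all genes (0.895%) did. At an adjusted p of 0.05 the count in this fit was 0 for all genes as well. At an unadjusted p under 0.05, 1 member (HOXB3) and 1352 of all genes (7.66%) were counted. A separate fit of only genes averaging 1 CPM or more put some genes below 0.05, such as the chemokine gene CXCL8 (adjusted p = 0.0189 in limma). None of the 3 HOXB members tested there was called. Of the 4 members that averaged 0.5 CPM or more, 3 had lower means with CML and 1 had a higher mean, and their median log2 difference was −0.12 against 0.01 over all genes at that level. All log2 differences were taken after 1 CPM was added to every value, so changes of low genes appear smaller than they are.

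HOXB9 read 61.7, 58.0, 59.3 and 60.3 CPM in control replicates 1 to 4. The CML replicates 1 to 4 read 60.1, 60.0, 60.8 and 60.8 CPM. Every CML value lay within the control range, and the groups overlapped throughout. The means were 59.8 ± 1.55 CPM in control and 60.4 ± 0.449 CPM in CML (SD, n = 4 each), a log2 difference of 0.01 (SE 0.020), or 1.01% in CPM. The log2 difference was −0.0051 with libraries centred on their medians and −0.0017 with quantile normalization, so its sign depended on the scaling. With 4054 control and 4134 CML reads in all, this was the member with the firmest estimate, and its coefficient of variation over the 8 libraries was 1.83%.

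HOXB7, which can induce growth and angiogenic factors in breast cancer cells, read 3.16, 2.54, 2.90 and 2.85 CPM in the control replicates. It read 3.59, 1.66, 2.50 and 2.30 CPM in the CML replicates. CML replicate 1 held the highest and CML replicate 2 the lowest value of all 8 libraries, so the CML range enclosed that of the controls. The means were 2.86 ± 0.254 and 2.51 ± 0.803 CPM (SD, n = 4 each), a log2 difference of −0.16 (SE 0.16), about the size of its error. It was −0.30 without CML replicate 1 and −0.04 without CML replicate 2.

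HOXB3 read 2.33, 2.25, 2.42 and 2.22 CPM in the control replicates and 1.91, 1.93, 2.01 and 2.04 CPM in the CML replicates. All 4 CML values were below all 4 control values, which HOXB3 alone of the 7 members showed. Of all genes, 225 (1.27%) had CML values entirely below control, and 667 (3.78%) had groups apart in either direction. The means were 2.30 ± 0.0887 and 1.97 ± 0.0635 CPM (SD, n = 4 each), a log2 difference of −0.15 (SE 0.036), or −14.4% in CPM.

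The HOXB3 difference was small beside the number of reads. Control libraries held 39, 38, 40 and 39 reads, and CML libraries held about 33, 36, 33 and 33. The sums were 156 and 135 reads, with exact 95% Poisson intervals of 1.96 to 2.69 CPM for control and 1.65 to 2.33 CPM for CML, which overlapped. Replicates of one group lay closer together than independent read counts of this size would on average, at an SD of 0.0887 CPM in control where the counting SD was 0.369 CPM, and of 0.0635 CPM in CML where it was 0.341 CPM. The SE of 0.036 rested on this spread. When limma was fitted only on genes averaging 1 CPM or more, the SE was 0.12 for a log2 difference of the same direction. HOXB3 passed the FDR of 0.3 without a variance trend, without moderated variances, or without control replicate 4, and its difference stayed negative in each of the 19 settings run, from −0.21 to −0.13.

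HOXB8 read 0.835, 1.30, 0.423 and 1.25 CPM in the control replicates. The CML replicates read 0.926, 0.749, 0.609 and 0.996 CPM. Control replicates 2 and 4 were the highest and control replicate 3 the lowest of all libraries, so the controls enclosed the CML values. The means were 0.953 ± 0.411 and 0.820 ± 0.175 CPM (SD, n = 4 each), a log2 difference of −0.08 (SE 0.16). It ran from −0.22 without control replicate 3 to −0.0034 without control replicate 4 and 0.0065 without control replicate 2.

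HOXB5, which takes part in vascular and enteric nerve development, read 0.119, 0.177, 0.242 and 0.285 CPM in control and 0.174, 0.0535, 0.0609 and 0.311 CPM in CML. HOXB4, a factor that expands blood stem cells when overexpressed, read 0.0596, 0.296, 0.121 and 0.0570 CPM in control and 0.116, 0.0535, 0.0609 and 0.249 CPM in CML. HOXB6, also expressed in blood progenitors, read 0.119, 0.0591, 0.121 and 0 CPM in control and 0.116, 0.0535, 0 and 0.138 CPM in CML. These are 0 to 5 reads per library, and the groups overlapped for all of these genes. The log2 differences were −0.07 (SE 0.080), −0.02 (SE 0.083) and 0.00 (SE 0.053). No change was called, and a moderate change could have been missed at this depth. With a pseudocount of 0.1 the HOXB5 difference was −0.38, from 14 control and 10 CML reads.

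**Figure D3:**
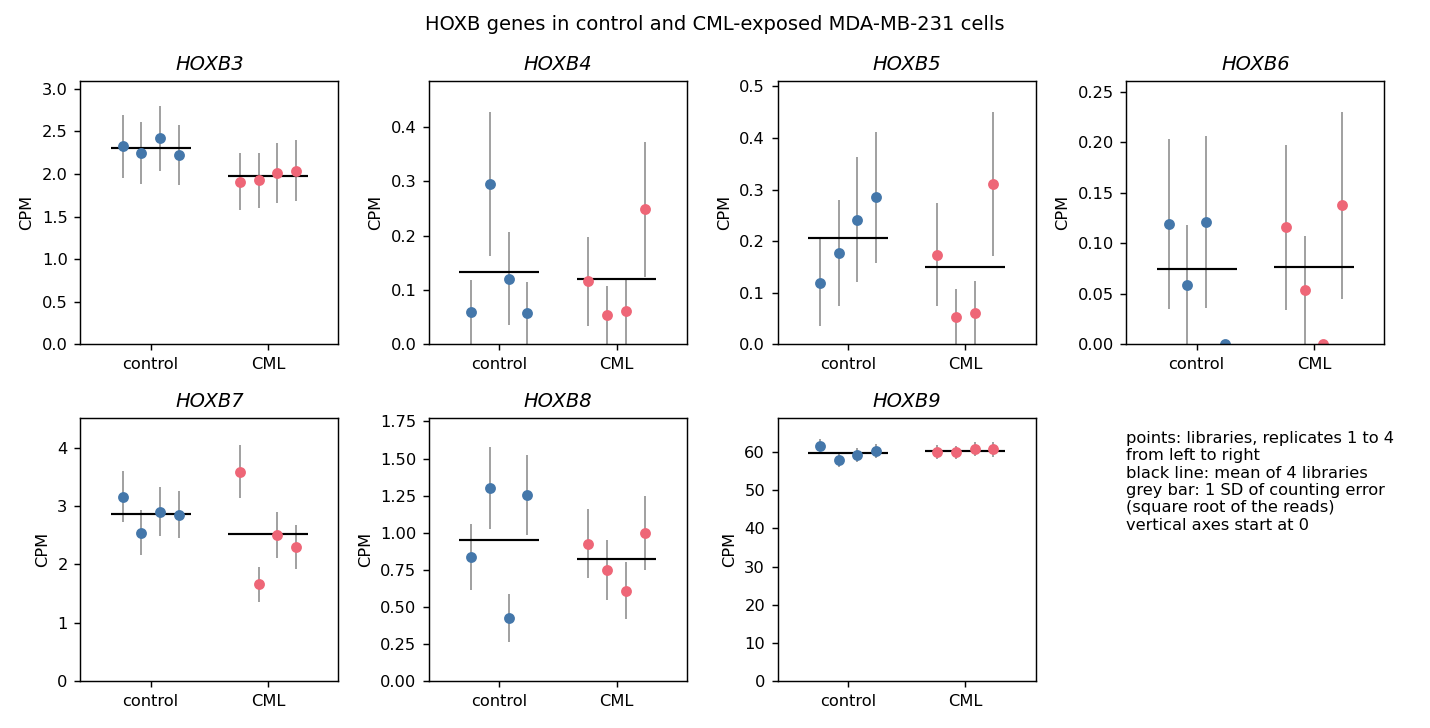
CPM of each HOXB gene in the 4 control and 4 CML libraries (points), with the group mean (black line) and 1 SD of counting error for each library (grey bar), each panel on its own axis from 0. The points were apart for HOXB3 (2.22 to 2.42 CPM against 1.91 to 2.04 CPM), although their grey bars overlapped, and the points of the other 6 genes overlapped between groups.

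The spread between replicates was set beside counting error for each member and group. The SD between libraries was above the counting SD in 5 of the 14 pairs of member and group. HOXB7 in CML cells had an SD of 0.803 CPM with a counting SD of 0.383 CPM, and HOXB8 in control cells had 0.411 CPM with 0.238 CPM. HOXB9 in CML cells lay on the other side, at 0.449 CPM with a counting SD of 1.89 CPM, as HOXB3 did in both groups. With 4 libraries an SD is itself imprecise, and differences in spread between members were not tested.

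**Figure D4:**
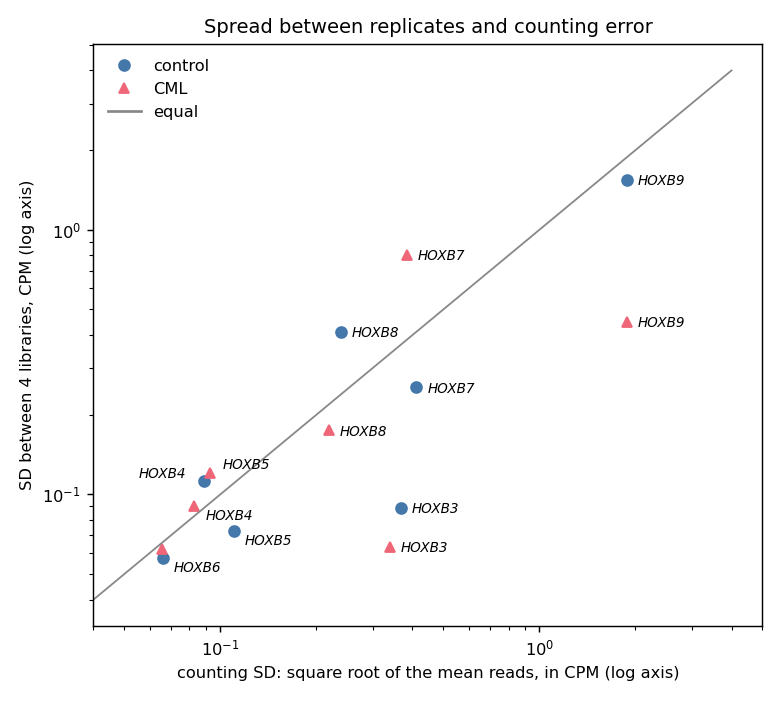
SD between the 4 libraries of a group against the counting SD, both in CPM on log axes, for each HOXB gene in control (circles) and CML (triangles). HOXB3 lay below the line of equality in both groups (0.0887 against 0.369 CPM in control), and HOXB7 in CML cells lay above it (0.803 against 0.383 CPM).

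Reads of some members could not be assigned to 1 gene with certainty. In the annotation, exons of HOXB3 and HOXB6 shared 433 bases on the same strand, which was 5.83% of the HOXB3 exon length and 16.6% of that of HOXB6, and exons of HOXB3 and HOXB4 shared 44 bases. In CML replicate 4 the HOXB3 value corresponded to 32.8 reads and the HOXB6 value to 2.21 reads, which together made 35 whole reads. Exons of HOXB6 also overlapped 425 bases of the antisense transcript HOXB-AS3, and those of HOXB3 overlapped 374 bases of HOXB-AS1. The sources used here do not say whether counting used the strand, so reads from these antisense genes cannot be told apart from those of the members. HOXB7, HOXB8 and HOXB9 shared no exon base with another annotated gene.

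The summed level of the 7 members was 68.3, 64.6, 65.6 and 67.0 CPM in the control replicates and 66.9, 64.5, 66.1 and 66.8 CPM in the CML replicates. The groups overlapped, at 66.4 ± 1.603 and 66.1 ± 1.13 CPM (SD, n = 4 each) and a log2 difference of −0.01. HOXB9 made up 89.8% to 93.0% of this sum, so the total followed that gene. Without HOXB9 the other 6 members summed to 6.53 ± 0.205 CPM in control and 5.65 ± 1.01 CPM in CML (SD, n = 4 each), and CML replicate 1, at 6.83 CPM, was above every control.

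Pearson's r between members was computed for the 4 that averaged 0.5 CPM or more. Among HOXB3, HOXB7, HOXB8 and HOXB9, r on log2(CPM + 1) ran from −0.22 (HOXB8 with HOXB9) to 0.34 (HOXB3 with HOXB7), and with the group means removed from −0.71 (HOXB3 with HOXB8) to 0.26 (HOXB7 with HOXB9). These describe 8 libraries from 2 groups. Outside the members, the genes most like the summed HOXB level among 13044 compared were TATDN2 (r = 0.965), EFCAB13 (0.956), AC005332.4 (0.950), PHF13 (0.939) and ZNF213-AS1 (0.938). With the group means removed, the leading genes were ZNF213-AS1 (0.986), TATDN2 (0.984), ENOSF1 (0.973), PEX3 (0.970) and PHF13 (0.969). These are the highest of 13044 values over 8 libraries and describe those libraries only.

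The other HOX genes gave no call either. Of 27 analysed, 4 averaged 0.5 CPM or more, with a median log2 difference of −0.07 for those 4. None passed the FDR of 0.3, beside 0.895% of all genes, or an unadjusted p of 0.05 in limma, beside 7.66%. With 6 HOXA, 4 HOXC and 3 HOXD genes and HOXB13 at 0 in all libraries, many of the 27 could not be called. HOXD1 averaged 7.52 ± 0.485 CPM in control and 8.01 ± 1.54 CPM in CML cells, and HOXC6 averaged 2.10 ± 0.381 and 1.65 ± 0.383 CPM (SD, n = 4 each). HOXD3 had 1.35 ± 0.242 and 1.31 ± 0.447 CPM, and HOXD4 had 1.41 ± 0.548 and 1.21 ± 0.219 CPM. HAGLR, a long noncoding RNA transcribed antisense within the HOXD cluster, was the sole HOX antisense or intergenic RNA of 11 analysed at 0.5 CPM or more. Its level was 24.5 ± 0.733 CPM in control and 24.5 ± 0.557 CPM in CML cells, a log2 difference of 0.00 (SE 0.029).

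**Figure D5:**
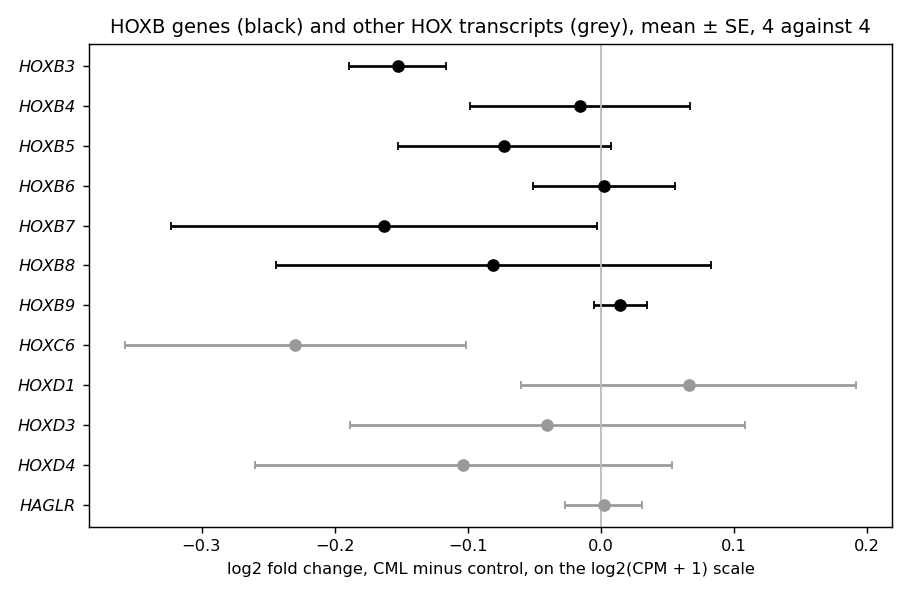
log2 difference (CML minus control, log2(CPM + 1) scale) with 1 limma SE on either side, 4 libraries against 4, for the HOXB genes (black) and the other HOX transcripts with at least 0.5 CPM (grey). HOXB9 lay at 0.01 with a short bar (below 0 under both rescalings of the libraries), HOXB3 at −0.15, and HOXC6 was lowest at −0.23.

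Of 16 genes analysed that flank the cluster on chromosome 17, none was called, beside 0.895% of all genes, and 2 were lower at an unadjusted p under 0.05, beside 2.9% of all genes. SNX11, a sorting nexin on one side, averaged 30.0 ± 1.40 and 29.4 ± 1.43 CPM, and CALCOCO2, an autophagy receptor on the other, averaged 147 ± 3.37 and 149 ± 1.76 CPM (SD, n = 4 each). CDK5RAP3, a component of the UFM1 ligase complex, was at 163 ± 6.997 CPM in control and 151 ± 1.47 CPM in CML cells, with all CML values below control and an adjusted p of 0.400 in limma. The zinc finger repressor ZNF652 was at 23.1 ± 1.42 and 20.1 ± 1.43 CPM (adjusted p = 0.507 in limma). PHOSPHO1, a phosphatase of bone mineralisation, was at 0.148 and 0.203 CPM, a few reads per library (adjusted p = 0.710 in limma). CDK5RAP3 passed the FDR with quantile normalization, and both CDK5RAP3 and ZNF652 did with GC content and length removed.

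HOX proteins bind DNA together with PBX, MEIS and PKNOX cofactors. All 11 genes of the cofactor list, which also holds GMNN, were analysed at 0.5 CPM or more. None was called, beside 0.895% of all genes, and their median log2 difference was 0.01. PKNOX2 was at 0.442 ± 0.137 CPM in control and 0.669 ± 0.125 CPM in CML cells, with the groups apart and an adjusted p of 0.611 in limma. Its highest control value (0.532 CPM) and lowest CML value (0.548 CPM) lay less than 1 read apart, at 0.0535 to 0.0622 CPM per read. Of all 17649 genes, 442 had CML values entirely above control. PBX2 was at 175 ± 1.64 and 172 ± 3.51 CPM, and GMNN, which encodes the licensing inhibitor geminin, at 18.7 ± 1.95 and 20.1 ± 1.204 CPM (SD, n = 4 each).

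Among 44 Polycomb and trithorax regulators, which keep HOX genes silent or active, 1 was called higher and none lower, beside 0.674% of all genes called higher. This was PHF19, a Polycomb-like subunit of the PRC2 complex, which rose from 72.1 ± 2.44 to 81.7 ± 3.57 CPM (SD, n = 4 each, log2 difference 0.18, SE 0.038, adjusted p = 0.281 in limma). PHF19 was called in 8 of the 18 alternative settings. It was not called with libraries centred on their medians, with quantile normalization or without moderated variances. Nor was it called with the replicate number as a block (adjusted p = 0.343 in limma). The call was also lost without any 1 of control replicates 1 to 3 and CML replicates 1 to 3. PHF19 was called with GC content and length removed (adjusted p = 0.0111 in limma, 0.0176 with the block added) and without CML replicate 4 (adjusted p = 0.225). Without control replicate 4, 2 genes of the list (KAT6A and PHF19) were called. The median log2 difference of the 44 genes was 0.00. Of 15 retinoid and CDX genes analysed, 9 had at least 0.5 CPM and none was called, beside 0.895% of all genes. ALDH1A3, which makes retinoic acid, was at 7.62 ± 0.953 and 8.78 ± 0.681 CPM, the receptor gene RXRA at 43.1 and 40.5 CPM, and CYP26B1, which degrades retinoic acid, at 11.1 and 10.1 CPM (adjusted p = 0.729, 0.865 and 0.865).

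Of 22 genes analysed that have been reported as targets of HOXB7 or HOXB9, 2 were called higher and none lower, beside 0.674% of all genes called higher. They were the chemokine genes CXCL8, which rose from 908 ± 35.7 to 1076 ± 38.6 CPM (log2 difference 0.24, SE 0.037, adjusted p = 0.145 in limma), and CXCL1, which rose from 126 ± 5.72 to 148 ± 4.00 CPM (log2 difference 0.22, SE 0.036, adjusted p = 0.153). Both are also targets of inflammatory signaling. The list was written with results of these libraries known, so its count is not independent evidence of a direction, and the median log2 difference of its 19 genes at 0.5 CPM or more was 0.03. With the replicate number as a block CXCL8 kept its call and CXCL1 did not (adjusted p = 0.212 and 0.356 in limma). In a fit of only genes averaging 1 CPM or more, the adjusted p was 0.0189 for CXCL8 and 0.0356 for CXCL1 in limma. With GC content and length removed it was 4.29e-06 and 0.00148. Each gene was called in 14 of the 18 alternative settings. Neither gene was called without CML replicate 2 or without CML replicate 3. CXCL1 alone was called without control replicate 2 or 3 and CXCL8 alone without CML replicate 4, whereas 4 genes of the list were called without control replicate 4. HOXB7 and HOXB9 RNA was not called as changed in the same libraries, though the HOXB7 estimate was loose (log2 difference −0.16, SE 0.16). Whether CXCL8 and CXCL1 changed through HOXB7 or HOXB9 was not tested.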

How the data were processed

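RNA-Seq libraries of MDA-MB-231 cells (4 control, 4 CML) were compared, with groups and replicate numbers taken from the sample titles. The authors deposited normalised CPM. The submitters' processing notes name edgeR and the build hg38, and the methods describe CPM with TMM scaling for the study's RNA-Seq without naming these libraries. The aligner, the counter and the use of strand for these libraries are not given in the sources used here. The 17681 rows were averaged by symbol to 17649 genes, following the methods. log2(CPM + 1) was fitted over all genes with limma 3.58.1 (eBayes with trend, R 4.3.3) and Benjamini-Hochberg adjustment, and genes were called at FDR 0.3. Reads were estimated from the smallest steps of each column. Between 85.1% and 86.1% of values were whole reads within 0.02, too few for a count test. Lengths and sequences came from GENCODE release 44, coordinates from RefSeq GRCh38.p14. How well the fit detects changes in genes averaging less than 1 CPM, which include HOXB4, HOXB5, HOXB6 and HOXB8, was not tested.

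The members, gene lists and tests were chosen with earlier results of these data known. Named genes outside HOXB were HOX genes and antisense RNAs with a mean of at least 0.5 CPM, list genes called at FDR 0.3 or otherwise the 3 with the smallest p, the nearest flanking genes analysed, and the 5 genes most correlated with the summed HOXB level. Alternatives covered the pseudocount, low-value filter, symbol averaging, library scaling, variance model, replicate block, GC content and length, and leaving out each library. The recognition helix sequences of the other members are not reported here.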

Additional observations from a re-analysis of the deposited data

Results flagged for a closer look

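In 54 groups of 4 libraries, covering each named gene and the summed HOXB level, a single library stood far from the rest of its group by Dixon's ratio in 3, where chance gives about 2.7. None concerned a HOXB member or their sum. HOXD1 was at 6.80 CPM in control replicate 1, with the other controls at 7.74 to 7.80 CPM. PHOSPHO1 was at 0.268 CPM in CML replicate 2, with the other CML libraries at 0.174 to 0.187 CPM, the level of 3 reads. PKNOX2 was at 0.239 CPM in control replicate 1, with the other controls at 0.484 to 0.532 CPM. At 0.0535 to 0.0622 CPM per read, the PHOSPHO1 and PKNOX2 values rested on few reads, where steps of whole reads are large beside the range.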

How the results depend on the processing

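The number of all genes called (158) was 73 with libraries centred on their medians, 84 without moderated variances, 874 with GC content and length removed, and 20 (without CML replicate 2) to 690 (without control replicate 4) when 1 library was left out. The replicate block gave 189 calls, and 924 together with GC content and length. Libraries of replicate numbers 1 and 4 deviated together (correlations 0.199 and 0.334), and those of numbers 2 and 3 did not (−0.0303 and −0.0645), so the numbers were not taken to pair the libraries. Of the HOXB members (0 called), 1 was called without the trend and 1 without moderated variances, with 0 to 1 over the left-out libraries. The replicate block gave 0. The flanking genes (0) gave 1 with quantile normalization (CDK5RAP3), 2 with GC content and length removed (CDK5RAP3 and ZNF652), 2 with the block added, and 0 to 1 over the left-out libraries. The Polycomb and trithorax regulators (1) gave 0 with centring, quantile normalization, unmoderated variances or the replicate block, 4 with GC content and length removed with or without the block, and 0 to 2 over the left-out libraries. The retinoid and CDX genes (0) gave 1 (RARA) with the block and GC content and length. The reported targets (2) gave 2 with the replicate block (CXCL8 and NRG1), 5 with GC content and length removed with or without the block, and 0 to 4 over the left-out libraries. The causes of these shifts were not tested. The log2 difference of the summed HOXB level ran from −0.03 to 0.01. The sign of the log2 difference turned when 1 library was left out for HOXB4 (−0.0693 to 0.0504), HOXB6 (−0.0319 to 0.0372), HOXB8 (−0.224 to 0.0065), HOXD1 (−0.0251 to 0.151), HOXD3 (−0.151 to 0.0709), HOXD4 (−0.178 to 0.0446), SNX11 (−0.0546 to 0.00094) and HAGLR (−0.0107 to 0.0215). It also turned for HOXB9 (−0.0051 centred and −0.0017 with quantile normalization), HOXB6 (−0.0174 centred), CALCOCO2 (−0.0020 with quantile normalization) and HAGLR (−0.0173 centred, −0.0086 with quantile normalization, and −0.0024 with GC content and length removed with or without the block). Depth limited HOXB4, HOXB5 and HOXB6, at 0 to 5 reads per library.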
